A study of Mus musculus with 6 samples.

Results

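The Hox cluster genes of the mouse were followed in RNA-seq of whole embryonic lung. Members were all rows whose Ensembl identifier mapped to a symbol made of Hoxa, Hoxb, Hoxc or Hoxd and a number from 1 to 13, a rule that reads names only. Of the 39 such genes in the annotation, 21 were among the 14162 genes with values: 7 of 11 Hoxa genes on chromosome 6, 9 of 10 Hoxb genes on chromosome 11, 2 of 9 Hoxc genes on chromosome 15 and 3 of 9 Hoxd genes on chromosome 2. The other 18 were not analysed here. All lungs came from embryos at E12.5. In 3 libraries, called Dnmt1KO here, the genotype was ShhCre-Dnmt1KO, a deletion of the maintenance DNA methyltransferase gene Dnmt1 by ShhCre, a recombinase driven by Shh in the endoderm of the airways and not in the mesenchyme around them. The 3 other libraries, called WT, were labelled as wild-type controls. No library is labelled as carrying ShhCre alone, so an effect of the Cre cannot be told apart from one of the deletion. No cell sorting is described, so each library mixes all cell types of the lung, and fewer cells of a type cannot be told apart from less RNA per cell. The labels do not tie libraries to separate embryos, so a p-value reflects only how far these samples spread, which may be technical in part.

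Hox genes encode transcription factors that bind DNA through a homeodomain, a helical domain encoded by the homeobox. Their order along each cluster follows the level of the body axis at which they are active, low paralog numbers towards the head and high ones towards the tail, and genes with the same number in different clusters are descended from the same ancestral gene. In the lung they are known mainly from the mesenchyme, where Hoxa5, Hoxb5 and Hoxc5 act together in branching, and loss of Hoxa5 disturbs the development of the airways. Polycomb proteins are known to hold Hox genes silent outside their domain, and the clusters are rich in CG dinucleotides with little methylation.

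The homeobox shows how near these genes are to each other, which bears on how well short reads can be assigned. The 180 bases of the homeobox were located in the GENCODE transcripts of all 39 genes and are printed for Hoxb9, the member with the lowest p-value, for Hoxb8, its neighbour in the cluster, and for Hoxa5, the member with the highest level (GRCm38, 5′ to 3′ on the coding strand). In Hoxb9, at chr11:96274659-96274838 on the plus strand in exon 2 of 2, capitals mark the 18 bases that encode the conserved core of the DNA-contacting helix. In the other 2 sequences capitals mark the bases that differ from Hoxb9. These lie at chr11:96284174-96284353 (Hoxb8, plus strand, exon 2 of 2) and chr6:52202632-52202811 (Hoxa5, minus strand, exon 2 of 2).
Hoxb9: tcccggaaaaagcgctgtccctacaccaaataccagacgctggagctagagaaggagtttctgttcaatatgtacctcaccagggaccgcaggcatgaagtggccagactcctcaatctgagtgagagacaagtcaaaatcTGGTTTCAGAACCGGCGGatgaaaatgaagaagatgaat
Hoxb8: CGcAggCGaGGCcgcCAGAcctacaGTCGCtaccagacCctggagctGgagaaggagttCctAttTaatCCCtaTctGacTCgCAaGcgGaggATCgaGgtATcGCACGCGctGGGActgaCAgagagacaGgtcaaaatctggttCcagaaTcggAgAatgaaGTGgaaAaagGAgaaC
Hoxa5: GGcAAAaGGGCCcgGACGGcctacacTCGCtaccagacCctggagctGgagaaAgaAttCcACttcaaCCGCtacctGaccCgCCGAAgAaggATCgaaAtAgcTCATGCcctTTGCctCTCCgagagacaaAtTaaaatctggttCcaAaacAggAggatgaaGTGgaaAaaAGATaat
Over these 180 bases Hoxb9 was identical to Hoxb8 at 64.44% of positions and to Hoxa5 at 60.56%. Its nearest relatives were Hoxd9 at 84.44%, Hoxc9 at 83.89% and Hoxa9 at 81.67%, and those 3 were not analysed here. Over the 210 pairs of measured members identity ran from 46.11% to 93.89%, with a median of 67.78%. The longest stretch that a measured member shared letter for letter with another Hox transcript, leaving out stretches of only 2 kinds of base, ran from 20 bases in Hoxc4 and Hoxd13 to 52 bases between Hoxa6 and Hoxb4, and was 40 bases between Hoxb9 and Hoxd9.

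CG content was read in the promoter windows that RefSeq gives for 12 of the 21 members, each with 250 bases before and 50 after the start (GRCm38.p6). These windows held a median of 13.5 CG dinucleotides, against 7 over all 32851 windows, and ranged from 6 in Hoxd8 to 37 in Hoxd13. The 250 upstream bases are printed for Hoxa5, the member with the highest level, and for Hoxd13, which had the most CG and one of the lowest levels, with each CG in capitals. They hold 28 CG dinucleotides at chr6:52204588-52204837 (minus strand) and 31 at chr2:74667975-74668224 (plus strand).
Hoxa5: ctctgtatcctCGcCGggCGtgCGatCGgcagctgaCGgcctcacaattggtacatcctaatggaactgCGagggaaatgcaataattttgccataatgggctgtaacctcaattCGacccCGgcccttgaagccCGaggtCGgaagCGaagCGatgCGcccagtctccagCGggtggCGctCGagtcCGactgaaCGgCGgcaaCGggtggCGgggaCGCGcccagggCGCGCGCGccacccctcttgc
Hoxd13: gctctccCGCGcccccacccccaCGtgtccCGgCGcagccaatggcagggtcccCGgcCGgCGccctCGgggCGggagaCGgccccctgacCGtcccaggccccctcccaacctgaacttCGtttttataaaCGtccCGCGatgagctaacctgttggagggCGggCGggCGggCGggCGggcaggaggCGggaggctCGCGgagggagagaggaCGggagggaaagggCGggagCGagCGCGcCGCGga
In the whole 300-base windows Hoxa5 held 29 CG dinucleotides, more than 87.07% of all windows, and the window of Hoxd13 exceeded 94.42%. The letters TATAAA, searched on either strand, occurred in 2 of the 12 member windows (Hoxb8 and Hoxd13) and in 13.62% of all windows. The letters TGATNNAT, a form of the joint binding site of Hox proteins and their Pbx cofactors, occurred in 3 (Hoxa2, Hoxb1 and Hoxb8) and in 8.85% of all windows. Methylation was not measured in these samples, and the counts describe the sequence only.

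The lungs expressed mainly the front and middle paralogs of the Hoxa and Hoxb clusters. Levels are given as scaled reads per kb, the reads of a gene scaled to a common library size and divided by its exon length in kb. In WT, Hoxa5 led with 2411 ± 264 (SD, n = 3), above 98.0% of all measured genes. Hoxb5 followed with 1204 ± 226, Hoxb4 with 978 ± 62.0 and Hoxb6 with 933 ± 234. The highest member of the Hoxc cluster was Hoxc4 at 119 ± 26.0, and that of the Hoxd cluster was Hoxd3 at 41.0 ± 47.8, an SD larger than the mean. The lowest level was that of Hoxb9, 2.91 ± 2.48, with Hoxd8 at 6.67 ± 4.21 and Hoxd13 at 6.81 ± 0.903 above it.

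**Figure D1:**
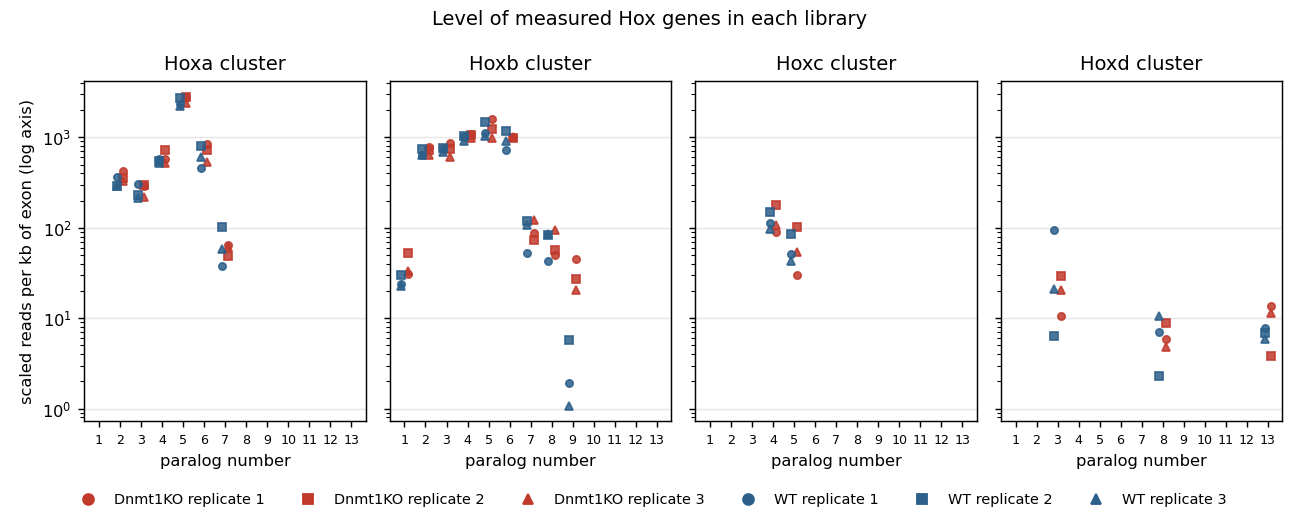
Scaled reads per kb of exon (log axis) of 20 of the 21 measured Hox genes in each library against paralog number, with 1 panel for each cluster; blue points are WT, red points Dnmt1KO, and the marker shape gives the replicate. Hoxa5 is highest in all 6 libraries, levels in the Hoxb cluster drop from Hoxb6 to Hoxb7, and Hoxb9 is the gene whose red and blue points lie farthest apart.

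In the order of the WT means the ranges of neighbouring genes overlapped at most steps. They did not overlap between Hoxa5 and Hoxb5, Hoxb5 and Hoxb4, Hoxa4 (548 ± 29.9) and Hoxa2 (312 ± 41.1), Hoxa3 (250 ± 50.2) and Hoxc4, and Hoxb1 (25.5 ± 3.92) and Hoxd13. Between Hoxb4 and Hoxa4 stood Hoxb6, Hoxb3 (734 ± 41.2), Hoxb2 (674 ± 54.6) and Hoxa6 (623 ± 171), none separable from its neighbour. The low group below Hoxc4 included Hoxb7 (92.9 ± 35.3), Hoxb8 (70.2 ± 24.1), Hoxa7 (66.2 ± 33.2), Hoxc5 (59.8 ± 22.4) and Hoxd3. The 10 highest members were the same genes in the same order in Dnmt1KO, from Hoxa5 at 2676 ± 250 and Hoxb5 at 1266 ± 301 down to Hoxa3 at 270 ± 43.2. Only Hoxb9 changed place by more than 2 ranks, from rank 21 in WT to rank 18 in Dnmt1KO, where it stood at 31.2 ± 13.1.

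Between the genotypes no Hox gene passed the test. limma on the deposited log2 values, with Benjamini-Hochberg adjustment over all 14162 genes and a threshold of 0.05, called 0 of 21 members higher and 0 lower in Dnmt1KO, where it called 0.282% of all genes higher (40 genes) and 0.00706% lower (1 gene). At an unadjusted p under 0.05 there was 1 member, Hoxb9, against 4.52% of all genes, and voom on the reads also called 0 members, with 0.169% of all genes higher. In 2 members, Hoxb9 and Hoxb1, every Dnmt1KO library was above every WT library, which held for 4.79% of all genes, and in 0 members was every Dnmt1KO library below, against 3.99%. The log2 fold change (Dnmt1KO minus WT) was positive in 16 of 21 members, against 50% of all genes, with a median of 0.12 and a range from -0.33 to 3.57; the median of all genes was -0.0001. By cluster the median was 0.15 in Hoxa, 0.070 in Hoxb, -0.020 in Hoxc and 0.17 in Hoxd, and by paralog number it was 0.11 over the 10 members numbered 1 to 4, 0.067 over the 9 numbered 5 to 8 and 1.94 over the 2 numbered 9 to 13, Hoxb9 and Hoxd13. The last of these medians joins Hoxb9 at 3.57 and Hoxd13 at 0.31, both with few reads. Most genes numbered 9 to 13 were not analysed here, so it does not describe those numbers as a group. The whole-list median moved between 0.060 without Dnmt1KO replicate 2 and 0.21 without WT replicate 2. With 1 library left out in turn the Hoxa median ran from 0.099 to 0.26 and the Hoxb median from 0.016 (without WT replicate 1) to 0.21 (without WT replicate 2). Of the other medians 3 changed sign: Hoxc ran from -0.39 (without Dnmt1KO replicate 2) to 0.30 (without Dnmt1KO replicate 1), Hoxd from -0.44 (without WT replicate 2) to 0.40 (without WT replicate 1) and paralogs 5 to 8 from -0.045 (without WT replicate 1) to 0.24 (without WT replicate 2). With quantile normalization the Hoxd median was -0.54.

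**Figure D2:**
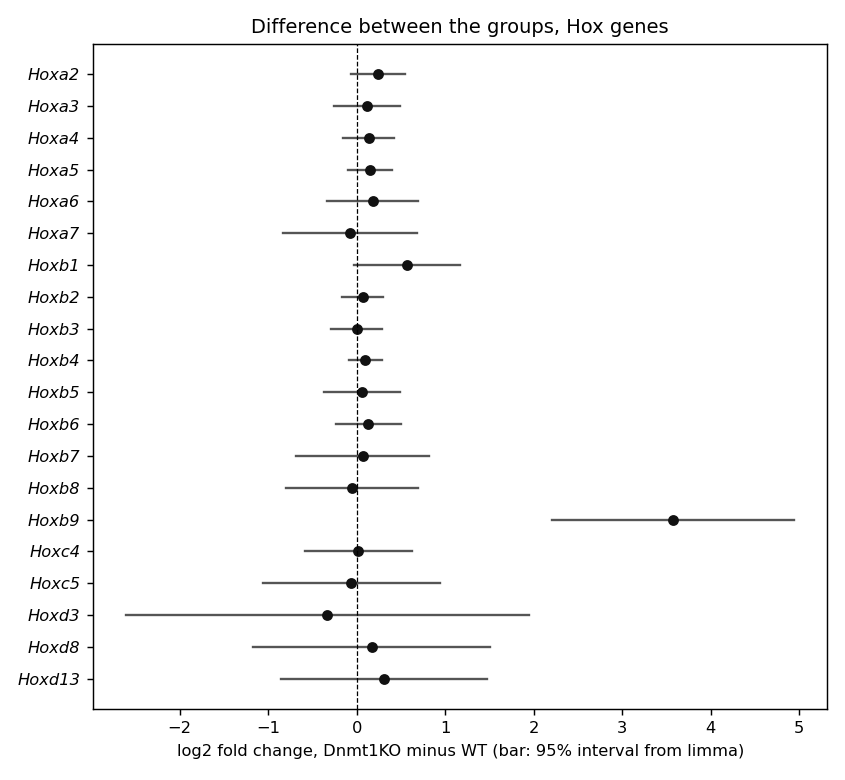
Log2 fold change of 20 of the 21 measured Hox genes, Dnmt1KO minus WT, in the order of clusters and paralog numbers; points are limma estimates from 3 against 3 libraries, bars their 95% intervals, and the dashed line is no difference. Only the interval of Hoxb9 excludes 0, from 2.20 to 4.94, and the widest belongs to Hoxd3.

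The intervals show how large a difference could have been missed. Leaving out Hoxb9, the largest absolute log2 fold change among the other 20 members was 0.57 (Hoxb1), and their median absolute value was 0.12, against 0.079 over all genes. For 15 of these 20 the 95% interval lay within 1 on the log2 scale in either direction, a change of 2-fold, and for 8 it lay within 0.5. The 7 members with 1000 or more reads in every library, which are Hoxa3, Hoxa5, Hoxb2, Hoxb3, Hoxb4, Hoxb5 and Hoxb6, had fold changes between -0.0001 and 0.15.

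Hoxb9, a posterior member that takes part in patterning the thoracic trunk, had few reads in every library and more in each Dnmt1KO library than in any WT library. Dnmt1KO replicates 1, 2 and 3 held 101, 67 and 52 reads, while 6, 14 and 3 were found in WT replicates 1, 2 and 3. The log2 values were 9.15, 8.42 and 7.99 in Dnmt1KO and 4.70, 6.20 and 3.95 in WT, so the lowest Dnmt1KO library lay above the highest WT library. The means were 8.52 ± 0.59 and 4.95 ± 1.15 (SD, n = 3 each), a log2 fold change of 3.57 ± 0.60 (SE, 95% interval 2.20 to 4.94), or 11.9-fold, with an unadjusted limma p of 0.000282 and an adjusted p of 0.0702, which does not pass. The ratio of the summed scaled reads was 11.1, with an exact Clopper-Pearson 95% interval of 7.19 to 17.8 for counting error alone. Hoxb9 held 220 reads over the Dnmt1KO libraries and 23 over those of WT. The gene filter is not known, and the lowest total of any gene with values was 60 reads. Hoxb9 may thus have been kept only through its Dnmt1KO reads, and its fold change, interval and p do not allow for such a filter. With 1 library left out in turn, the fold change stayed between 3.07 (without WT replicate 3) and 4.19 (without WT replicate 2), with adjusted p from 0.0202 to 0.358; it passed without WT replicate 2, where 0.24% of all genes were called higher, and with sample weights (3.92, adjusted p = 0.0212) (0.402% of all genes higher and 0.0847% lower). The fold change was 2.88 (7.37-fold) with an offset of 5 reads and 2.91 (7.52-fold) with quantile normalization, both below the range with a library left out. No exon of Hoxb9 overlapped another gene in the annotation, and its neighbour Hoxb8 had overlapping groups, with 114, 141 and 248 reads for Dnmt1KO against 134, 208 and 244 for WT.

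Marker genes of other tissues gave values that moved with Hoxb9 in part. Of the list for hindgut and caudal tissue 2 of 6 genes were measured, T and Tbx6, and their summed scaled reads ran from 49.6 to 135.1 in Dnmt1KO and from 26.3 to 78.0 in WT, so the groups overlapped. The 4 measured liver genes of 8 (Afp, Alb, Apoa1 and Apob) had sums of 605.8, 374.7 and 316.6 for Dnmt1KO replicates 1, 2 and 3, against 64.2, 114.9 and 70.7 for WT, groups that did not overlap. Afp supplied most of this sum, with 426, 201 and 174 reads in Dnmt1KO, the order of the Hoxb9 values. Alb, with 12, 101 and 101 reads, ran the other way and overlapped WT (5, 19 and 2), and neither Apoa1 (54, 23 and 32) nor Apob (28, 30 and 7) followed the Hoxb9 order. The 4 measured limb bud genes of 7 had sums of 164.3, 735.7 and 167.4 for Dnmt1KO replicates 1, 2 and 3. The WT sums ran from 98.0 to 190.1, so the groups overlapped. Pitx1 held 570 reads in Dnmt1KO replicate 2 and from 17 to 29 in every other library. Lhx2 held 23, 44 and 17 reads for Dnmt1KO against 8, 11 and 9 for WT, a fold change of 1.64 ± 0.48 (SE, limma adjusted p = 0.533). In Pitx1 and Lhx2 every Dnmt1KO log2 value was above every WT value, as in 4.79% of all genes, but neither followed the Hoxb9 order. The groups overlapped in Msx1 and Msx2. No measured gene of the hindgut and liver lists was at 0 in any library. The part of these tissues in the Hoxb9 difference was not tested.

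**Figure D3:**
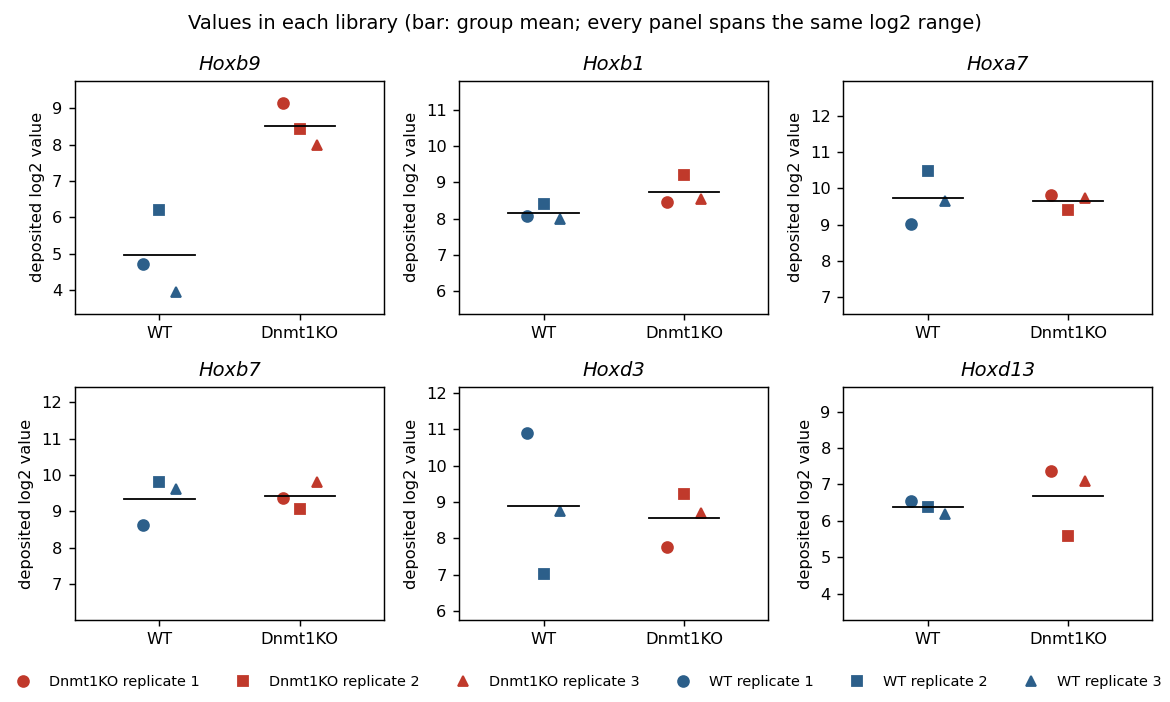
Deposited log2 values of 6 Hox genes in each library, WT in blue and Dnmt1KO in red, with the marker shape giving the replicate and the bar the group mean; every panel spans the same log2 range. The groups are apart in Hoxb9 and, by a small gap, in Hoxb1, and overlap in Hoxa7, Hoxb7, Hoxd3 and Hoxd13, where WT replicate 1 of Hoxd3 stands far above the other libraries.

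None of the paralogs numbered 5, the group best known from lung development, passed the test between genotypes. Hoxa5 had log2 values of 14.63, 14.63 and 14.39 in Dnmt1KO and 14.35, 14.58 and 14.28 in WT, with means of 14.55 ± 0.14 and 14.40 ± 0.15 (SD). The groups overlapped, and its fold change was 0.15 ± 0.11 (SE, 95% interval -0.09 to 0.40, limma adjusted p = 1). Hoxb5 stood at 14.36, 14.02 and 13.67 in Dnmt1KO and 13.85, 14.26 and 13.77 in WT, with a fold change of 0.062 ± 0.19 (limma adjusted p = 1), and the lowest and highest libraries were both Dnmt1KO. Hoxc5 stood at 8.81, 10.55 and 9.65 in Dnmt1KO and 9.56, 10.31 and 9.33 in WT, with a fold change of -0.060 ± 0.43 (limma adjusted p = 1). Its spread within Dnmt1KO covered all 3 WT values. The 95% interval of Hoxb5 ran from -0.36 to 0.49. That of Hoxc5 ran from -1.06 to 0.94, or 0.48-fold to 1.92-fold, so a sizeable change of Hoxc5 could have been missed.

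Among the paralogs numbered 1 to 4, which pattern the hindbrain and neck and also mark the foregut, Hoxb1 had the lowest p after Hoxb9. It held 62, 115 and 76 reads in the Dnmt1KO libraries, 67, 66 and 57 in those of WT, and log2 values of 8.45, 9.19 and 8.53 against 8.08, 8.39 and 7.98. The gap between the lowest Dnmt1KO and the highest WT library was small, and the fold change of 0.57 ± 0.26 (SE, 95% interval -0.02 to 1.17) did not pass (limma adjusted p = 1). It was 0.34 without Dnmt1KO replicate 2, the library with the highest value, and 0.71 without Dnmt1KO replicate 1.

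Hoxa2, a regulator of hindbrain segments and their neural crest, had overlapping groups. It stood at 11.81, 11.58 and 11.46 in Dnmt1KO and 11.58, 11.28 and 11.25 in WT, a fold change of 0.25 ± 0.13 (SE, limma adjusted p = 1). Dnmt1KO replicates 2 and 3 lay inside the WT range. Hoxa4 stood at 12.11, 12.42 and 11.96 against 12.12, 12.02 and 11.96, a fold change of 0.13 ± 0.12 (limma adjusted p = 1) that became 0.0068 without Dnmt1KO replicate 2. Hoxb4, known also from blood stem cells, stood at 13.71, 13.68 and 13.57 in Dnmt1KO and 13.59, 13.63 and 13.45 in WT, a fold change of 0.098 ± 0.083 (limma adjusted p = 1). Hoxa3, which patterns the pharyngeal pouches, was at 0.12 ± 0.16, Hoxb2 at 0.070 ± 0.10 and Hoxb3 at -0.0001 ± 0.13, all 3 with overlapping groups. Hoxb3 shares 52.9% of its exon bases with the antisense gene Hoxb3os, Hoxb2 27.3% with the same gene, and Hoxa3 27.1% with other transcripts of the cluster; whether reads were counted by strand is not given in the sources used here.

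Hoxc4 and Hoxd3, the highest members of the Hoxc and Hoxd clusters, varied more within a genotype than between genotypes. Hoxc4 stood at 10.10, 11.11 and 10.35 in Dnmt1KO and 10.45, 10.83 and 10.22 in WT, a fold change of 0.020 ± 0.26 (SE, limma adjusted p = 1). In both Hoxc genes Dnmt1KO replicate 2 was the highest and Dnmt1KO replicate 1 the lowest of all 6 libraries. Hoxd3 held 38, 117 and 86 reads in the Dnmt1KO libraries, 480, 25 and 97 in those of WT, with log2 values of 7.75, 9.22 and 8.71 against 10.91, 7.01 and 8.75. WT thus held its highest and its lowest library, a range of 3.90 that exceeded that of 99.8% of all genes. The fold change was -0.33 ± 0.95 (limma adjusted p = 1), 0.68 without WT replicate 1 and -1.27 without WT replicate 2. In the annotation 62.8% of its exon bases overlap Hoxd4 or other transcripts of the cluster.

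The summed reads of the list for neurons and spinal cord moved with Hoxd3. The 8 measured of 10 genes on the list for neurons and spinal cord summed to 2870 scaled reads in WT replicate 1, 1347 in WT replicate 3 and 651 in WT replicate 2, and ranged from 777 to 1695 in Dnmt1KO. WT replicate 1 was the highest and WT replicate 2 the lowest of the 6 libraries for this sum, as they were for Hoxd3. Sox10 held the most reads of the list in WT replicate 1, with 1037. Olig2 and Neurog2 of the list were not analysed here. In Dnmt1KO replicate 2, where the Hoxc genes were highest, the 6 measured of 7 heart genes summed to 10860 scaled reads, against 838 to 2332 in the other 5 libraries. That library also had the highest sums for the foregut and stomach, kidney and gonadal ridge, limb bud, skeletal muscle, mesothelium and lung mesenchyme lists. WT replicate 2, the next highest library for both Hoxc genes, had a heart sum of only 1117. The part of any of these tissues in the Hoxd3 and Hoxc values was not tested.

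Of the 6 measured paralogs numbered 6 to 8, 5 had WT replicate 1 as their lowest WT library, the exception being Hoxd8, which was lowest in WT replicate 2. Hoxa6, Hoxa7, Hoxb6, Hoxb7 and Hoxb8 were the 5 members with this pattern, with WT replicate 2 highest in the first 4 and WT replicate 3 in Hoxb8, while 14 of the 21 members were lowest in WT replicate 3. Hoxb6 stood at 12.72 in WT replicate 1 and at 13.44 and 13.05 in replicates 2 and 3, against 13.22, 13.17 and 13.23 in Dnmt1KO. Its fold change was 0.13 ± 0.16 (SE, limma adjusted p = 1), and it was -0.045 without WT replicate 1. Hoxa7 held 130 reads in WT replicate 1, 280 in replicate 2 and 183 in replicate 3, against 160, 132 and 174 in Dnmt1KO, a fold change of -0.079 ± 0.33. Hoxb7 held 98, 175 and 179 reads in WT and 117, 106 and 185 in Dnmt1KO, a fold change of 0.067 ± 0.33. Hoxa6 was at 0.18 ± 0.22 and Hoxb8 at -0.049 ± 0.33. All 5 had overlapping groups and none passed the test. Over the 21 members 6 had a WT range above 1 on the log2 scale and 5 a Dnmt1KO range above 1, against 7.27% and 7.40% of all genes.

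Hoxd8 and Hoxd13, regulators of the trunk and of the limb and genital buds, were near the lower end of what was counted. Hoxd8 held 14, 23 and 13 reads for Dnmt1KO against 23, 6 and 32 for WT, a fold change of 0.17 ± 0.58 (SE). Hoxd13 held 29, 9 and 28 reads for Dnmt1KO against 23, 16 and 16 for WT, a fold change of 0.31 ± 0.51. Dnmt1KO held the highest and the lowest library of Hoxd13, and WT those of Hoxd8. The 95% interval of Hoxd8, from -1.17 to 1.51, includes a 2-fold change in either direction, and that of Hoxd13, from -0.85 to 1.48, includes a 2-fold increase.

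Summed over a cluster, the genotypes overlapped as well. Sums are given as RPM, the reads of a cluster scaled by the total reads of the library. The Hoxb genes took 632 ± 64.8 RPM in WT and 673 ± 80.2 in Dnmt1KO (SD, n = 3 each), and the Hoxa genes 393 ± 30.0 and 440 ± 50.3. The Hoxc genes took 22.8 ± 6.04 and 24.1 ± 11.0, and the Hoxd genes 9.70 ± 9.61 and 5.96 ± 1.48. The Hoxd sum was 20.5 in WT replicate 1, where Hoxd3 supplied 480 of 526 reads, and 2.28 and 6.26 in WT replicates 2 and 3. Of all reads on measured Hox genes in WT, 59.8% fell on Hoxb, 37.2% on Hoxa, 2.16% on Hoxc and 0.917% on Hoxd. All 21 genes together took 1058 ± 92.5 RPM in WT and 1144 ± 125 in Dnmt1KO, with Dnmt1KO replicate 3 (1004) below WT replicates 1 and 2 (1035 and 1159).

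**Figure D4:**
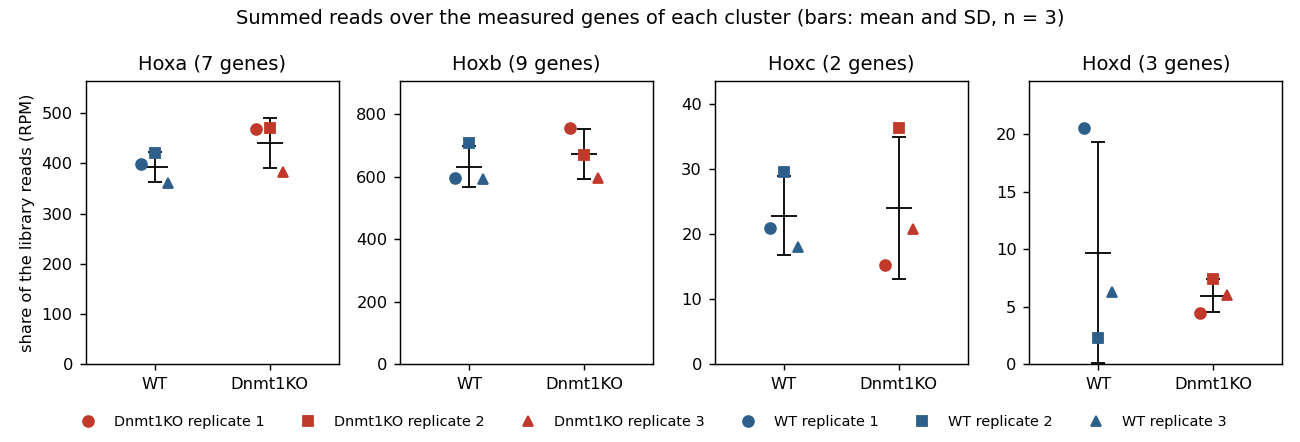
Reads as a share of the library (RPM) summed over the measured genes of each Hox cluster, with points for libraries (WT blue, Dnmt1KO red, marker shape for the replicate) and bars for the mean and SD of 3 libraries; each panel has its own axis from 0. The groups overlap in all 4 clusters, and WT replicate 1 stands out in the Hoxd panel at 20.5.

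The cofactors of Hox proteins and the regulators of the clusters were given from lists. Over all genes limma called 0.282% higher and 0.00706% lower, so few calls are expected in lists of this size. All 9 TALE homeobox cofactors, which bind DNA jointly with Hox proteins, were measured. Of these 0 were called higher and 0 lower, and their median fold change was 0.026. The 2 with the lowest p were Meis3 at 0.097 ± 0.10 and Pbx3 at -0.097 ± 0.10. All 32 Polycomb and Trithorax genes, which keep Hox genes silent or active, were measured. Of these 0 were called higher and 0 lower, with a median of -0.037. Cbx7, a chromodomain subunit of Polycomb repressive complexes, held 232, 126 and 279 reads for Dnmt1KO against 132, 96 and 102 for WT, a fold change of 1.09 ± 0.28 that did not pass (limma adjusted p = 0.378). Bmi1, another subunit, was at 0.22 ± 0.09 (limma adjusted p = 1). Of 25 upstream genes, among them retinoic acid enzymes and receptors, 20 were measured, 0 were called higher and 0 lower, with a median of -0.032. Crabp2, a retinoic acid binding protein, was at 0.33 ± 0.14 and Rdh10, an enzyme of retinoic acid synthesis, at -0.34 ± 0.17. Of the 14 lung genes linked to the Hox5 paralogs, all measured, 0 were called higher and 1 lower, where the shares of all genes were 0.282% and 0.00706%. The list median was -0.21. The gene called lower was Ptch1, the Hedgehog receptor, at -0.63 ± 0.08 (limma adjusted p = 0.0258). The list also holds Shh, the locus that carries the Cre, at -0.98 ± 0.22 (limma adjusted p = 0.213). Without a control labelled as Cre alone, the Cre at Shh and the Dnmt1 deletion cannot be told apart for Shh and Ptch1. With Dnmt1KO replicate 1 or 2 or WT replicate 2 or 3 left out, 0 genes were called lower, Ptch1 included.

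The libraries held between 18192629 and 25597662 reads over the measured genes. The lung label held: all 11 lung mesenchyme genes and all 10 lung epithelium genes on the marker lists were measured, with sums of 115206 to 142973 and 14114 to 20322 scaled reads that overlapped between the genotypes. Dnmt1, the targeted gene, had 8388 to 8723 reads in Dnmt1KO and 10786 to 13466 in WT, which after scaling left 80.7% of the WT level (log2 fold change -0.31 ± 0.09, limma adjusted p = 0.507). Dnmt1KO replicate 1 held 3 reads over 4 Y-linked genes, where the other libraries held at least 4155, and the sexes were thus not balanced between the groups. Without that library the Hox counts were 0 members higher and 0 lower, while over all genes 15 were called higher and 0 lower. With calls this rare over all genes, few are expected among the Hox genes, so these counts cannot show whether sex matters. An effect of sex on the Hox genes was not tested.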

How the data were processed

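Whole lungs at E12.5 were profiled by RNA-seq, with 3 Dnmt1KO and 3 WT libraries by their labelled genotype. STAR, limma and the build mm9 are named, per the submitters' processing notes. The sources used here do not give versions, read counter, strand setting, annotation or gene filter. The authors deposited 1 table per library with log2 values. These equal, for 100% of genes within a tolerance of 1e-06, log2 of whole reads plus 0.5 times a constant of the library, so reads and depths were recovered from them; the lowest gene total was 60 reads. Fold changes depend on this offset where reads are few.

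Symbols came from GENCODE M21 (GRCm38), matched for 13967 of 14162 identifiers; exon lengths and positions are of that annotation and not the authors'. All genes were fitted on the log2 scale with limma 3.58.1 (R 4.3.3), genotype being the only term. Trend and robust moderation, Benjamini-Hochberg adjustment and a threshold of 0.05 were used. The fit was also run on simulated reads whose spread depended only on the mean of a gene. That run does not show how the fit does for genes that vary more between libraries. Members and lists were chosen with earlier results of these data known. Hox genes given in full were the 8 with the lowest p, the highest member of each cluster and the paralogs numbered 5; in each list, the genes past the test or else the 2 with the lowest p were named, and values of genes named beyond these were chosen after they were seen. Homeobox DNA was read from GENCODE transcripts for Hoxb9, Hoxa5 and Hoxb8, the last chosen after its values were seen; some items that these rules would print are not reported here, and protein sequences were not used here. The alternatives tried were the replicate block, the lowest 25% of genes left out, quantile normalization, median centring, moderation without trend and robust estimation, sample weights, an offset of 5 reads, voom with TMM factors on the reads, and leaving out each library.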

Additional observations from a re-analysis of the deposited data

How the results depend on the processing

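No setting called a Hox gene lower, and 2 settings called 1 Hox gene, Hoxb9, higher: sample weights and leaving out WT replicate 2. Its adjusted p was 0.0839 with the replicate block, 0.134 with quantile normalization, 0.0767 with median centring, 0.179 without trend and robust estimation, 0.0503 with an offset of 5 reads and 0.10 with voom. With the lowest 25% of genes left out Hoxb9 was not tested, 12 of 21 Hox genes were kept, and 0 genes were called higher and 0 lower over all genes. Over all genes the main counts of 40 higher and 1 lower became 26 and 0 with the replicate block, 24 higher with voom, 0 lower without trend and robust estimation and 12 lower with sample weights. As each library was left out they ran from 15 to 42 higher and from 0 to 17 lower, and Hox genes called higher from 0 to 1. With quantile normalization 1 Hox gene, in place of 2, had all Dnmt1KO libraries above all WT libraries. The share of all genes was not counted under that setting, so this number cannot be judged against it. Deviations from the group means in same-numbered replicates of the 2 genotypes had correlations of -0.0027, -0.18 and 0.31. Replicates of unlike number ran from -0.37 to 0.38. With 3 libraries in each group these correlations cannot show whether the numbers pair the samples. Of 164 values of the 12 Hox genes under the naming rule, 149 kept their direction and side of the threshold, 2 of Hoxb9 passed, and 13 changed sign, all in genes that no setting called. These were Hoxc4 with quantile normalization (-0.0054), Hoxc5 (0.29) and Hoxd3 (0.0010) with sample weights, and values among those with a library left out, which ran from -0.11 to 0.24 for Hoxb5, -0.045 to 0.32 for Hoxb6, -0.27 to 0.23 for Hoxc4, -0.50 to 0.37 for Hoxc5 and -1.27 to 0.68 for Hoxd3. The cause of these changes was not tested. Hoxb9, Hoxd3, Hoxd8 and Hoxd13 each had a library with 25 reads or fewer, where counting error is large.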

Other observations

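Genes that flank the Hox clusters were described from a list, since they lie beside the members and share their chromosomes. Of 31 listed neighbours 24 were measured, and limma called 0 higher and 0 lower, against 0.282% and 0.00706% of all genes. So few calls are expected in a list of this size. The median log2 fold change of the neighbours was 0.0050, with a range from -0.22 to 0.58. The 2 with the lowest p were Nfe2, an erythroid transcription factor beside the Hoxc cluster, at 0.58 ± 0.22 (SE, limma adjusted p = 0.911), and Snx11, a sorting nexin beside the Hoxb cluster, at -0.22 ± 0.12 (limma adjusted p = 1). The erythroid marker list had 8 of 9 genes measured, with 38527 to 63528 summed scaled reads in Dnmt1KO and 28217 to 40093 in WT, and its part in the value of Nfe2 was not tested. Of 9 other homeobox genes that lie at Hox clusters or belong to related families 4 were measured. Of these 0 were called higher and 0 lower, against the same shares of all genes. Evx1, which ends the Hoxa cluster beyond Hoxa13, held 24, 34 and 27 reads for Dnmt1KO against 43, 10 and 25 for WT, a fold change of 0.54 ± 0.46. Meox1, a somite gene, was at 0.25 ± 0.21. The 13 antisense and long noncoding RNAs of the clusters on the list were not analysed here.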
